A study of Homo sapiens with 20 samples.

Results

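Nuclear genes of respiratory complex I were followed in RNA sequencing counts from 5 established human cancer cell lines, each treated with torkinib or left untreated. Members were all gene symbols made of NDUFA, NDUFAB, NDUFAF, NDUFB, NDUFC, NDUFS or NDUFV and a number, with 20 or more counts summed over the 20 libraries. Of the 50775 features in the files, 42 met this rule. They comprise 38 subunit symbols and 4 assembly factor symbols, NDUFAF1 to NDUFAF4. The least counted member, NDUFAF1, had 2100 counts, so the minimum removed no symbol of the pattern. All 42 members were also among the 16698 genes kept for testing. The rule used names and total counts, not the response to torkinib.

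Torkinib (PP242) is an ATP-competitive inhibitor of MTOR, the kinase that ties protein synthesis, growth and metabolism to nutrients and growth factors. Each of the 10 groups held 2 libraries of total RNA. Torkinib was given for 72 h at 10 µM to 94T778, a well differentiated liposarcoma line, at 4 µM to the melanoma lines A375 and SKMEL28, at 0.8 µM to the breast cancer line SKBR3 and at 4 µM to the breast cancer line AU565. Untreated cells of the same 5 lines were the controls, with no culture time given. SKBR3 and AU565 were derived from the same patient and both carry amplified ERBB2, so they are not independent examples of breast cancer. Per the labels, each dose was picked to arrest the cell cycle while cells stayed alive. A difference in response between lines is therefore also a difference in dose, except among A375, SKMEL28 and AU565, and growth media differed between lines as well. The labels do not say whether replicates came from separate cultures. The p-values therefore rest on a spread between libraries that may be technical. The series was set up to examine genes of DNA repair under MTOR inhibition, and complex I was not its stated subject.

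Complex I, the NADH:ubiquinone oxidoreductase of the inner mitochondrial membrane, is the entry point of the respiratory chain. Its matrix arm takes electrons from NADH and passes them over a flavin and a chain of iron-sulfur clusters to ubiquinone, and its membrane arm pumps protons. The catalytic core of the matrix arm is encoded in the nucleus and that of the membrane arm in mitochondrial DNA. Around this core sit nuclear-encoded accessory subunits, which stabilise the complex. Assembly factors help to build it and leave before it is finished. MTOR is known to control mitochondrial genes through transcription and through translation.

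Promoters of 5 subunit genes and of 1 assembly factor gene are shown because they mark the range of responses described below. NDUFS6, NDUFA6, NDUFA9 and NDUFA12 were 4 of the 5 members with the largest average falls, the other being NDUFC2, NDUFS7 fell in both breast lines but rose in SKMEL28, and NDUFAF3 rose in 3 lines and fell in 2. The sequences come from RefSeq on GRCh38.p14, which held a promoter for 36 of the 42 members. Each runs 5′ to 3′ on the strand of the gene and covers 250 bases before the transcription start and 50 bases after it. NDUFS6 lies at chr5:1801157-1801456, plus strand, NDUFA6 at chr22:42090723-42091022, minus strand, and NDUFA9 at chr12:4648864-4649163, plus strand. NDUFA12 lies at chr12:95003648-95003947, minus strand, NDUFS7 at chr19:1383657-1383956, plus strand, and NDUFAF3 at chr3:49020202-49020501, plus strand. Capitals mark exact matches, on either strand, to 6 short motifs named after factors linked to respiratory genes or growth. These were GCGCATGC for NRF1, CCGGAAG for GABPA and other ETS factors, AAGGTCA for ESRRA, AAGATGG for YY1, TGACGTCA for CREB and the E-box CACGTG.
NDUFS6: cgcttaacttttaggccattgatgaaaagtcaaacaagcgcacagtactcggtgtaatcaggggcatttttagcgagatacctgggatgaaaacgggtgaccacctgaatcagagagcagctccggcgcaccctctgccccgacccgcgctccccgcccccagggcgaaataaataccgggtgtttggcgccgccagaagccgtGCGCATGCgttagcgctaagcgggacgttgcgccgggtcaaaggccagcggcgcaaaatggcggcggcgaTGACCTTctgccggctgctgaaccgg
NDUFA6: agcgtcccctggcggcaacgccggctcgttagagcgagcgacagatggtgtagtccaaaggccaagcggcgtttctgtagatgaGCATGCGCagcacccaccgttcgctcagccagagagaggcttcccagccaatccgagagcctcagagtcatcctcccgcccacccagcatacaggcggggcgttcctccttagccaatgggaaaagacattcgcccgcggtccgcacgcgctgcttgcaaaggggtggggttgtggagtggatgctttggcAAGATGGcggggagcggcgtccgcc
NDUFA9: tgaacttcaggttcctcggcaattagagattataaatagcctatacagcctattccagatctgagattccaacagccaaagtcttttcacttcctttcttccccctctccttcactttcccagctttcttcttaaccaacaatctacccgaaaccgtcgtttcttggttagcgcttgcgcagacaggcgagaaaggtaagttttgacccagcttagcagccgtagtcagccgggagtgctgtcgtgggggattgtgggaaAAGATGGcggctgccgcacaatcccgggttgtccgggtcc
NDUFA12: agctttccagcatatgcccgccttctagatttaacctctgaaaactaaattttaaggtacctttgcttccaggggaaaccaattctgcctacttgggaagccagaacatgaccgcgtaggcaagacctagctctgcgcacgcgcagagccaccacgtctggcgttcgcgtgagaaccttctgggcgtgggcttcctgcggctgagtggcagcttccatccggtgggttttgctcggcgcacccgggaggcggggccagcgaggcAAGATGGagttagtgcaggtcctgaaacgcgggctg
NDUFS7: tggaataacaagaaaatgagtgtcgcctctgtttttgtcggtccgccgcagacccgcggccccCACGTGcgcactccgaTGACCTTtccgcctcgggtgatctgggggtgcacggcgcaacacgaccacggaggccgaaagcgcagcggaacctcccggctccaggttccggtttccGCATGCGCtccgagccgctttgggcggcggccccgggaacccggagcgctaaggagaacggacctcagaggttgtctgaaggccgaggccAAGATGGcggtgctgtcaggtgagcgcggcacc
NDUFAF3: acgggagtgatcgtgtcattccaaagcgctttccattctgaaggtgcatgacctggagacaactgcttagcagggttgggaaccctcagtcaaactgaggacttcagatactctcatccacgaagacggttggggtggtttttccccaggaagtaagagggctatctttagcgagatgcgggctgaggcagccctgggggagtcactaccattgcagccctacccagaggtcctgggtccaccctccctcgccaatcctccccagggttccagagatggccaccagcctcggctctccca

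The YY1 letters were held by 7 of the 36 member promoters (19.4%) and by 6.06% of all 27305 promoters. In each of the 7 a match began 11 to 26 bases after the start, as in NDUFA9 (11), NDUFA12 (15), NDUFS7 (18) and NDUFA6 (26). The NRF1 letters were held by 6 of 36 (16.7%) and by 3.27% of all promoters, among them NDUFS6, NDUFA6 and NDUFS7. For ESRRA the shares were 11.1% of members and 3.97% of all promoters, for ETS factors 16.7% and 10.7%, for the E-box 8.33% and 7.44%, and for CREB 5.56% and 1.98%. Matches of a motif on opposite strands can overlap, and no motif here contains another. NDUFAF3 held none of the 6. Nor did NDUFS8, NDUFB8 and NDUFV2, which fell on average, so members without these letters did not share one response. The median average change was -0.78 log2 for members with the YY1 letters and -0.58 for those without. It was -0.63 with and -0.58 without the NRF1 letters, -0.56 and -0.59 for ESRRA, -0.50 and -0.59 for ETS factors, -0.37 and -0.59 for CREB, and -0.59 on both sides for the E-box. Members with a motif thus had the lower median for YY1 and NRF1 and not for the other 4. The medians with a motif rest on 7 members for YY1 and on 6 each for NRF1 and ETS factors. They rest on 4 for ESRRA, 3 for the E-box and 2 for CREB. Over the 42 members the average change had an SD of 0.28, and these differences were not tested. These matches describe letters and say nothing about binding.

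The libraries held 4040023 to 9737903 counted reads, and members took 0.193 to 0.576% of them. Lineage markers followed the labels. The summed level of a 12q amplicon list (7 genes such as MDM2 and CDK4) was 10757 to 12153 CPM of library totals in 94T778 and at most 1010.4 elsewhere. A breast epithelial list (9 genes) summed to 11486 to 23312 in SKBR3 and AU565 and to at most 743 elsewhere. A melanocyte list (7 genes) summed to 7612 to 11559 in SKMEL28, to 629 to 712 in A375, and to at most 40.7 in the other lines, so A375 showed little of it. Some libraries stood apart. The untreated SKBR3 replicates differed from each other more than any other pair, with a chi-square per gene of 12.2, against 1.37 to 3.37 elsewhere. Mitochondrially encoded genes took 7.63% of counts in the first and 4.44% in the other. A375 untreated replicate 1 held more of the 12q list (1010.4) than replicate 2 (816).

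With torkinib, most transcripts of nuclear complex I genes fell, and their median change was lower in SKBR3 and AU565 than in the other 3 lines. Single genes departed from this, such as NDUFC2, which was lowest in 94T778. Levels are given as CPM, read counts relative to the library size after scaling with the TMM factors of edgeR, and changes as log2 fold changes, torkinib over untreated, ± SE. The summed level of the 42 members was 3219 and 2980.3 CPM in torkinib-treated SKBR3, against 6317 and 6207 CPM in untreated SKBR3. In AU565 it was 2445 and 2532 CPM with torkinib, against 4835 and 4963 CPM untreated. In both lines each treated library lay far below each untreated one. The gap was smaller in SKMEL28, with 2183 and 2159 CPM under torkinib, against 2566 and 2563 CPM untreated. 94T778 held 1886 and 1823 CPM with torkinib and 2435 and 2335 CPM untreated. A375 held 1996 and 1931 CPM with torkinib and 2248 and 2215 CPM untreated. The treated libraries were lower in these lines too, with no overlap. These sums give more weight to members with high levels. NDUFB9 alone averaged 685 CPM with torkinib and 1507 CPM untreated in SKBR3, and 467 and 946 CPM in AU565. In 94T778, A375 and SKMEL28 its group means were at most 119 CPM. In bulk RNA, fewer cells of a type and less RNA per cell cannot be told apart.

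Calls were made with edgeR's quasi-likelihood test at an adjusted p (Benjamini-Hochberg, over all genes tested) of 0.05. By this test 39 of the 42 members fell in SKBR3 and none rose, where 26.7% of all genes fell and 24.6% rose. In AU565 39 fell and none rose, where 28.6% of all genes fell and 26.9% rose. In 94T778 21 members fell and 2 rose, against 23.8% of all genes in each direction. In SKMEL28 18 fell and 5 rose, beside 23.7% and 20.4% of all genes. In A375 13 fell and 3 rose, beside 24.3% and 18.5% of all genes, the line where the members lay nearest to the background. On the average of the 5 lines 38 fell and none rose, beside 28.1% and 28.4% of all genes. The average takes SKBR3 and AU565, from the same patient, as separate lines, and a fall on average need not be shared by the lines. By number of lines, 8 members fell in 5, 7 in 4, 12 in 3, 12 in 2, 2 in 1 and 1 in 0. The shares of all genes were 4.62%, 6.02%, 8.97%, 15.9%, 21.3% and 43.3%, in this order. The median change of the members was -1.10 in SKBR3, -0.99 in AU565, -0.26 in 94T778, -0.25 in SKMEL28, -0.16 in A375 and -0.59 on average. The median over all genes tested lay between -0.02 and 0 in each. With library totals in place of TMM factors changes in 94T778 moved up, by a median of 0.11 over genes, and 18 members fell there. Without either of the untreated SKBR3 libraries in turn, 41 and 39 members fell in SKBR3 and 40 and 38 on average. With replicate 2 left out, 1 member rose in SKBR3.

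**Figure D1:**
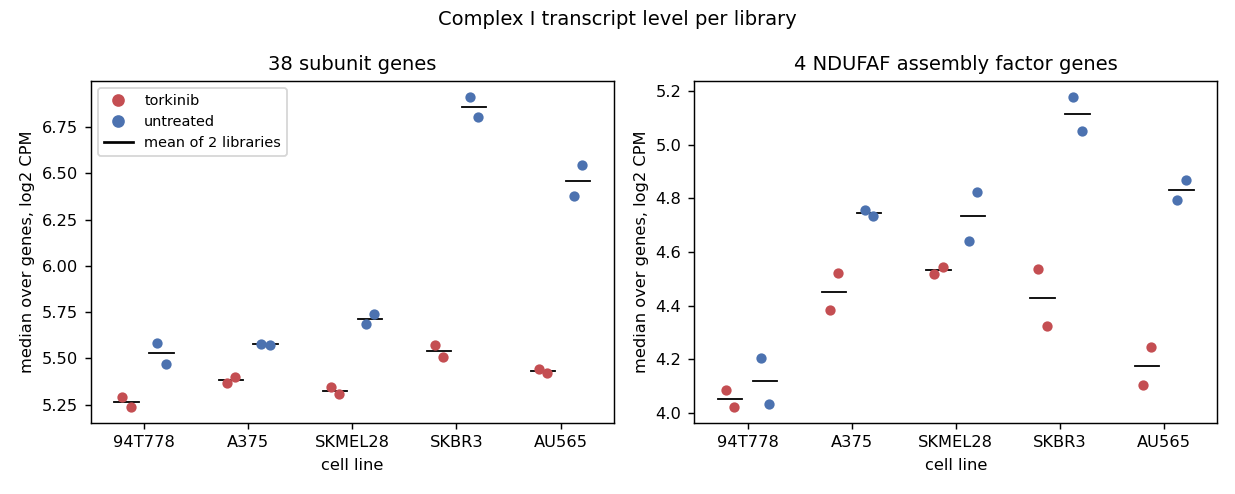
Median log2 CPM of the 38 subunit genes (left) and the 4 NDUFAF genes (right) in each library, with torkinib (red, left in each line) and untreated (blue), bars marking the mean of 2 libraries. The treated subunit medians lie between 5.24 and 5.58 in all 5 lines, while the untreated medians reach 6.80 and 6.91 in SKBR3 and 6.38 and 6.55 in AU565.

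**Figure D2:**
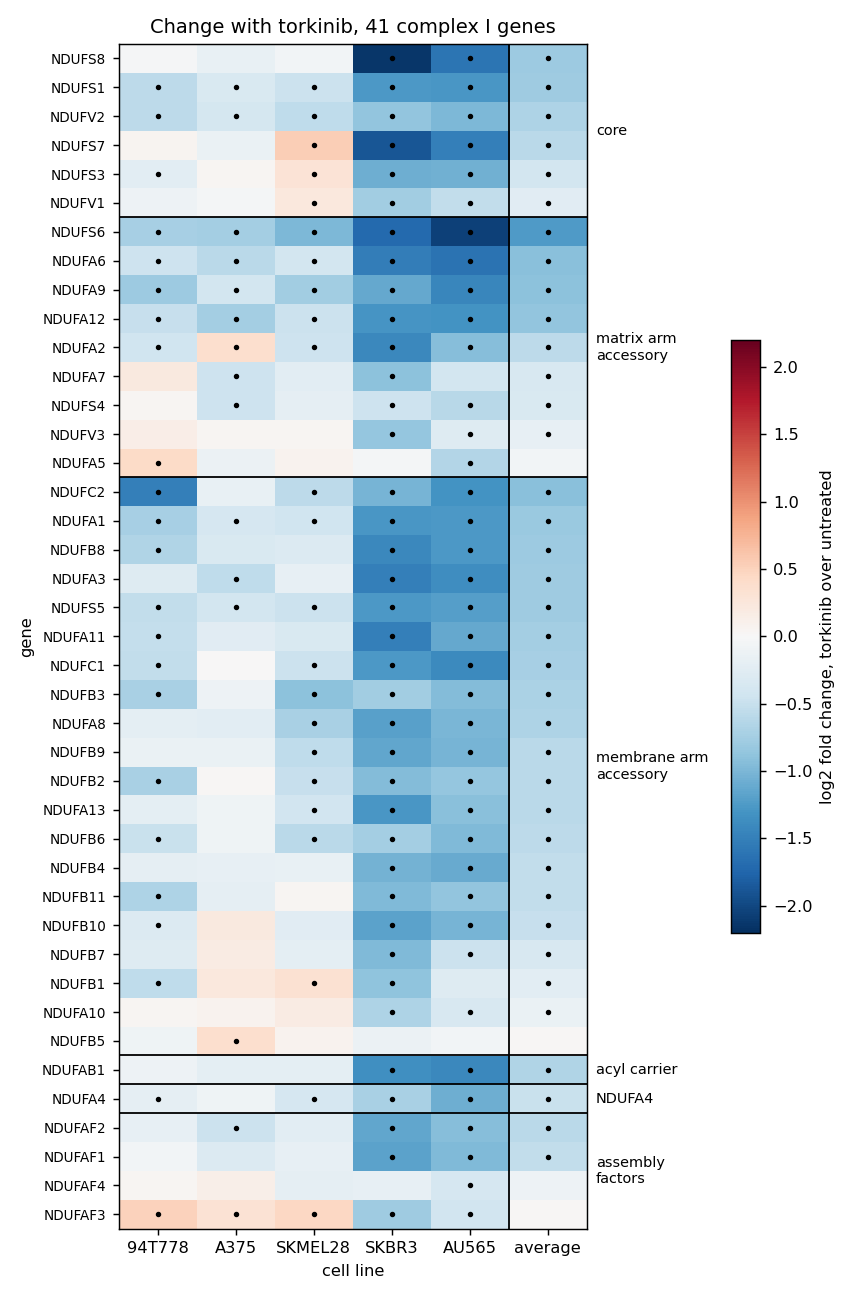
Log2 fold change, torkinib over untreated, of 41 members in each line and on the average of the 5 lines, grouped by role. Blue is lower and red higher with torkinib, and a dot marks an adjusted p under 0.05 in edgeR's quasi-likelihood test; 38 of 41 cells are dotted in SKBR3 and in AU565.

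Markers of other cell types and signs of library quality moved with treatment too. Of 4 endothelial symbols 3 were found, and their sum was 148 and 157 CPM of library totals in treated SKBR3, against 16.7 and 21 in untreated SKBR3. In AU565 it was 78.7 and 80.8 with torkinib and 29.2 and 28.6 untreated, so both lines had more with torkinib. It was also higher, at a low level, in treated A375 (6.19 and 5.94, against 2.35 and 2.81 untreated) and in treated SKMEL28 (6.40 and 7.22, against 2.31 and 1.71 untreated), and at most 1.06 in 94T778. In the breast lines nearly all of it was CDH5, since in the breast libraries VWF had at most 3.51 CPM and KDR at most 0.20 CPM. Of 6 blood markers HBB had no count in any library, and the list summed to at most 2.043 in the breast lines. The breast epithelial list was lower with torkinib, at 14274 and 14386 CPM in treated SKBR3, against 23312 and 22392 untreated, and at 11486 and 12083 in treated AU565, against 17572 and 17591 untreated. The melanocyte list was higher in treated SKMEL28 (11559 and 11365) than in untreated SKMEL28 (7980.4 and 7612). The part of these lists in the result was not tested.

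The share of reads that were counted in genes was lower with torkinib, without overlap, in SKMEL28 (53.4 and 47.8%, against 61.8 and 61.5% untreated) and A375 (54.9 and 51.0%, against 59.9 and 58.0% untreated), and the groups overlapped in the other 3 lines. MALAT1, a nuclear noncoding RNA, was higher with torkinib in 94T778 (454 and 419 CPM of library totals, against 146 and 194 untreated) and SKMEL28 (262 and 289, against 99.96 and 126 untreated). It was also higher in A375 and AU565 without overlap, while the SKBR3 groups overlapped (1121 and 1013 with torkinib, against 1245 and 699.8 untreated). The part of these measures in the result was not tested.

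The 7 core subunits of the matrix arm all fell on average, with a median of -0.59, where 28.1% of all genes fell. All 7 fell in SKBR3 and in AU565, beside 26.7% and 28.6% of all genes, with medians of -1.07 and -1.06. Elsewhere they split, with 3 falls and no rise in 94T778 and in A375, and 2 falls and 3 rises in SKMEL28. Of all genes 23.8% fell in 94T778 and 24.3% in A375, and in SKMEL28 23.7% fell and 20.4% rose.

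NDUFS1 and NDUFV2, iron-sulfur subunits of the module that oxidises NADH, were the core subunits that fell in all 5 lines. NDUFS1 had 91.9 and 89.4 CPM with torkinib, against 224 and 219 CPM untreated, in AU565. In SKMEL28 it had 219 and 212 CPM with torkinib, against 294 and 305 CPM untreated. In each line the treated libraries lay below the untreated ones. Its change ran from -1.29 ± 0.08 in AU565 to -0.33 ± 0.09 in A375 (edgeR, adjusted p = 7.79e-16 and 0.00157). NDUFV2 had 69.8 and 70.9 CPM with torkinib, against 134 and 147 CPM untreated, in AU565, and 47.7 and 46.6 CPM with torkinib, against 62.1 and 61.5 CPM untreated, in A375, again with no overlap. Its change ran from -0.99 ± 0.08 to -0.39 ± 0.10 in these lines (edgeR, adjusted p = 1.59e-12 and 0.00123).

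NDUFS7 and NDUFS8, which hold the iron-sulfur clusters next to ubiquinone, showed the widest range between lines among the core subunits. NDUFS8 had 34.4 and 27 CPM with torkinib, against 143 and 126 CPM untreated, in SKBR3, and 23.4 and 23.6 CPM with torkinib, against 74.3 and 69.3 CPM untreated, in AU565. These falls were -2.14 ± 0.11 and -1.61 ± 0.12 (edgeR, adjusted p = 7.31e-19 and 1.24e-14). In 94T778 it had 53.5 and 53.9 CPM with torkinib, against 55.7 and 54.2 CPM untreated, and its changes in 94T778, A375 and SKMEL28 (-0.03, -0.16 and -0.07) did not pass the test. The treated breast lines thus held less NDUFS8 than any untreated or treated library of the other 3 lines. NDUFS7 had 19.5 and 18.7 CPM with torkinib, against 75.9 and 65.7 CPM untreated, in SKBR3, and 8.94 and 12.6 CPM with torkinib, against 27.8 and 34.7 CPM untreated, in AU565. It fell by 1.89 and 1.50 on the log2 scale there (edgeR, adjusted p = 9.69e-15 and 2.73e-10). In SKMEL28 the order was the reverse, with 28.3 and 30.5 CPM with torkinib, against 22.7 and 18.4 CPM untreated, a rise of 0.54 ± 0.14 (edgeR, adjusted p = 0.00148). In 94T778 and A375 its changes were 0.06 and -0.15 and did not pass.

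NDUFS3 and NDUFV1 moved less. NDUFS3, of the module that reduces ubiquinone, fell in both breast lines (-1.07 and -1.06) and slightly in 94T778 (-0.24, edgeR, adjusted p = 0.0465). It rose in SKMEL28, with 51.8 and 49.98 CPM with torkinib, against 41.6 and 41.5 CPM untreated (0.29 ± 0.10, edgeR, adjusted p = 0.0117). NDUFV1, which binds NADH and the flavin, had the smallest average fall of the 7, -0.25 ± 0.04. It had 145 and 138 CPM with torkinib, against 248 and 231 CPM untreated, in SKBR3, and 87.8 and 84.5 CPM with torkinib, against 74.5 and 72.8 CPM untreated, in SKMEL28, where it rose by 0.23 (edgeR, adjusted p = 0.0294).

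**Figure D3:**
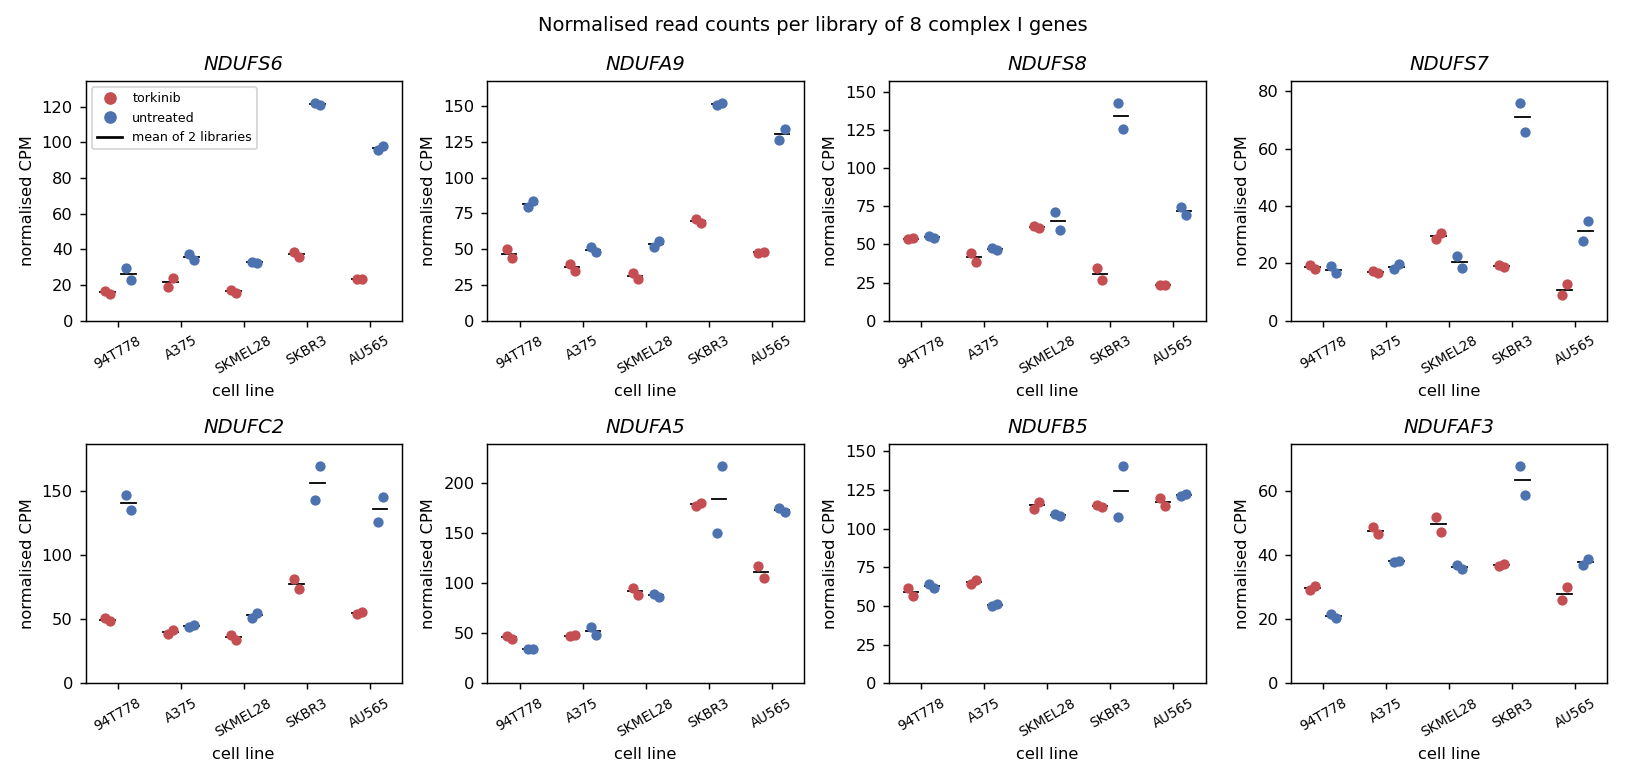
CPM of 8 members in each library, with torkinib (red, left in each line) and untreated (blue), bars marking the mean of 2 libraries, on axes that start at 0. NDUFS6 and NDUFA9 are lower with torkinib in every line. NDUFS8 is lower in SKBR3 and AU565 and was not called in 94T778, A375 and SKMEL28. NDUFAF3 is higher with torkinib in 94T778, A375 and SKMEL28 and lower in SKBR3 and AU565.

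Among the 9 accessory subunits of the matrix arm, 8 fell on average and none rose (median -0.58), beside 28.1% and 28.4% of all genes. 4 of them fell in all 5 lines, namely NDUFS6, NDUFA6, NDUFA9 and NDUFA12. Over the whole membership 8 genes did so, these 4 with NDUFS1, NDUFV2, NDUFA1 and NDUFS5, beside 4.62% of all genes tested.

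NDUFS6, a zinc-binding subunit that joins late in assembly, had the largest average fall of the 42 members, -1.24 ± 0.05 (edgeR, adjusted p = 2.51e-21). In AU565 it had 23.4 and 23.3 CPM with torkinib, against 95.8 and 98 CPM untreated, and in SKBR3 38.7 and 35.9 CPM with torkinib, against 122 and 121 CPM untreated. In 94T778 it had 16.7 and 15 CPM with torkinib, against 29.4 and 23 CPM untreated. No treated library reached an untreated one of its line, and the change ran from -2.05 ± 0.11 in AU565 to -0.73 ± 0.14 in 94T778. NDUFA9, which sits by the ubiquinone site and binds a nucleotide cofactor, had 47.6 and 48.1 CPM with torkinib, against 127 and 134 CPM untreated, in AU565, and 49.8 and 43.5 CPM with torkinib, against 79.3 and 83.4 CPM untreated, in 94T778. It fell by 1.44 and 0.80 in these lines (edgeR, adjusted p = 4.04e-16 and 5.06e-09), again with no overlap.

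NDUFA6, of the LYR family that binds acyl carrier protein, had 42.1 and 38.4 CPM with torkinib, against 122 and 109 CPM untreated, in SKBR3, and 16 and 19.2 CPM with torkinib, against 27 and 25.7 CPM untreated, in A375. Its falls there were -1.52 ± 0.10 and -0.60 ± 0.14 (edgeR, adjusted p = 4.24e-15 and 6.87e-04). NDUFA12, which takes the place of the assembly factor NDUFAF2 at the end of assembly, had 21.6 and 27 CPM with torkinib, against 42.1 and 38.8 CPM untreated, in A375. It fell by 0.75 there and by 1.31 in AU565 (edgeR, adjusted p = 2.71e-06 and 3.40e-13). Its level in 94T778 stood far above that in other lines, 242 and 223 CPM with torkinib and 346 and 318 CPM untreated, and it fell there too (-0.52).

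Other matrix arm subunits did not follow one pattern. NDUFA2, a small subunit of the NADH module, rose in A375, with 34.3 and 36 CPM with torkinib, against 25.2 and 28.8 CPM untreated (0.37 ± 0.12, edgeR, adjusted p = 0.00968), and fell in the other 4 lines, by as much as 1.42 in SKBR3. NDUFA5, in the module around the ubiquinone site, was not called on average (-0.07 ± 0.05, edgeR, adjusted p = 0.311). It rose in 94T778, with 47.3 and 44.6 CPM with torkinib, against 34.5 and 34.3 CPM untreated, and fell in AU565, with 117 and 106 CPM with torkinib, against 176 and 171 CPM untreated. In SKBR3 the untreated replicates spanned the treated ones, 177 and 181 CPM with torkinib against 150.0 and 218 CPM untreated. NDUFS4, an accessory subunit known from inherited complex I deficiency, fell by 0.45 in SKBR3, 0.61 in AU565 and 0.46 in A375. NDUFV3, on the NADH module, had 34 and 37.3 CPM with torkinib, against 67.7 and 61.7 CPM untreated, in SKBR3 , and it passed the test in SKBR3 and AU565 alone (-0.85 and -0.28). Without SKBR3 untreated replicate 1, NDUFA5 passed the test on average, at -0.12.

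Of the 20 accessory subunits of the membrane arm 19 fell on average and none rose (median -0.60), beside 28.1% and 28.4% of all genes. In SKBR3 19 fell, in AU565 18, in 94T778 12, in SKMEL28 10 with 1 rise, and in A375 3 with 1 rise. Of all genes 26.7% fell in SKBR3, 28.6% in AU565, 23.8% in 94T778 and 23.7% in SKMEL28, where 20.4% rose. In A375 24.3% of all genes fell and 18.5% rose, larger shares than among these 20 subunits. NDUFC2, a small subunit of the proximal membrane arm, had the largest average fall of them, -0.92 ± 0.05. It had 50.5 and 48.8 CPM with torkinib, against 147 and 135 CPM untreated, in 94T778, where its fall of -1.50 ± 0.10 was the largest of any member in that line (edgeR, adjusted p = 1.11e-15). In A375 it had 38.1 and 41.9 CPM with torkinib, against 43.9 and 45.4 CPM untreated, and its change of -0.17 did not pass (edgeR, adjusted p = 0.255).

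NDUFA1, a single-pass membrane subunit encoded on the X chromosome, and NDUFS5, on the side of the intermembrane space, fell in all 5 lines. NDUFA1 ran from -1.28 ± 0.09 in SKBR3 to -0.37 ± 0.11 in A375, and NDUFS5 from -1.26 ± 0.09 to -0.41 ± 0.09 in these lines. NDUFB3, a small subunit of the distal membrane arm, had 45.4 and 46.5 CPM with torkinib, against 79.4 and 90.6 CPM untreated, in SKMEL28, where it fell by 0.90 (edgeR, adjusted p = 9.30e-10). This was more than its fall of 0.77 in SKBR3, but the 2 estimates have SEs of 0.10 and 0.12 and their difference was not tested. NDUFB9, an LYR protein of the distal membrane arm, fell by 1.14 in SKBR3, 1.02 in AU565 and 0.56 in SKMEL28. The remaining membrane arm subunits that fell on average lay between -0.80 (NDUFB8) and -0.14 (NDUFA10).

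NDUFA10, which folds like a nucleoside kinase, and NDUFB5 had the weakest changes of the membrane arm. NDUFA10 had 111 and 109 CPM with torkinib, against 169.7 and 181 CPM untreated, in SKBR3, and it passed the test in SKBR3 and AU565 alone (-0.67 and -0.36). NDUFB5 was not called on average (0.03 ± 0.04, edgeR, adjusted p = 0.573). It had 119.8 and 114 CPM with torkinib, against 121 and 122.5 CPM untreated, in AU565, and 115 and 114 CPM with torkinib, against 107 and 141 CPM untreated, in SKBR3, and neither change passed. It rose in A375, with 64.3 and 66.6 CPM with torkinib, against 50.0002 and 51.6 CPM untreated (0.36 ± 0.10, edgeR, adjusted p = 0.0043).

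NDUFAB1, the mitochondrial acyl carrier protein, which serves complex I and iron-sulfur cluster synthesis, fell in the breast lines. It had 52.7 and 54.1 CPM with torkinib, against 127 and 145 CPM untreated, in SKBR3, and 49.3 and 49.2 CPM with torkinib, against 131 and 131 CPM untreated, in AU565, falls of -1.35 ± 0.09 and -1.41 ± 0.09 (edgeR, adjusted p = 7.61e-16 and 1.41e-16). In the other lines its changes of -0.12 to -0.21 did not pass. The treated libraries lay below the untreated ones there, but so did those of 34.2% of all genes in 94T778, 37% in A375 and 35.4% in SKMEL28. Nothing is read from that order. NDUFA4 carries a complex I symbol but was placed in cytochrome c oxidase, complex IV, by later work. It had 187 and 215 CPM with torkinib, against 426 and 427 CPM untreated, in AU565, fell by 1.08 there and by 0.71 in SKBR3, and showed smaller falls in SKMEL28 (-0.36) and 94T778 (-0.20, edgeR, adjusted p = 0.0472).

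The 4 NDUFAF assembly factors divided. NDUFAF1, part of the complex that assembles the membrane arm with ECSIT and ACAD9, and NDUFAF2, which holds the place of NDUFA12 during assembly, fell on average (-0.54 ± 0.08 and -0.59 ± 0.07). NDUFAF1 had 14.3 and 13.4 CPM with torkinib, against 31.3 and 31.2 CPM untreated, in SKBR3, and NDUFAF2 had 18.1 and 15.8 CPM with torkinib, against 41.4 and 33.3 CPM untreated. Both fell in SKBR3 and AU565, by 0.94 to 1.18, and NDUFAF2 also fell in A375 (-0.47, edgeR, adjusted p = 0.00622).

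NDUFAF3 and NDUFAF4, partners in building the ubiquinone module, were not called on average (0.02 ± 0.05 and -0.11 ± 0.06, edgeR, adjusted p = 0.871 and 0.115). NDUFAF3 changed in every line. It rose in 94T778, with 29.1 and 30.4 CPM with torkinib, against 21.5 and 20.3 CPM untreated, in A375, with 48.8 and 46.6 CPM with torkinib, against 38 and 38.2 CPM untreated, and in SKMEL28, with 52.1 and 47.1 CPM with torkinib, against 37 and 35.6 CPM untreated. The rises were 0.50, 0.33 and 0.46 (edgeR, adjusted p = 7.69e-04, 0.00988 and 2.74e-04), with no overlap between groups. It fell in SKBR3, with 36.6 and 37.2 CPM with torkinib, against 68 and 59 CPM untreated, and in AU565, with 26.1 and 30.03 CPM with torkinib, against 36.8 and 38.8 CPM untreated. These falls were -0.78 and -0.42 (edgeR, adjusted p = 5.94e-08 and 0.00149), so an average near 0 stands for opposite directions. NDUFAF4 had 22.1 and 22.9 CPM with torkinib, against 29.7 and 28.4 CPM untreated, in AU565, the line where it fell (-0.37, edgeR, adjusted p = 0.0134). Without SKBR3 untreated replicate 1, NDUFAF4 passed on average, at -0.14.

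The median fall was larger over subunits than over the NDUFAF genes. The median average change was -0.59 over 38 subunits and -0.33 over 4 assembly factors, a difference of -0.27. The SD of the average change over genes was 0.27 in the subunits and 0.30 in the assembly factors, about the size of this difference. Between replicate libraries the difference of the list medians in log2 CPM had an SD of 0.07, which leaves out the spread over genes. Leaving out each library in turn gave -0.30 to -0.23, and leaving NDUFA4 out of the subunits gave -0.27. By line the difference was -0.34 in AU565, -0.29 in 94T778, -0.14 in SKBR3, -0.13 in SKMEL28 and -0.08 in A375. In A375 it turned to 0.03 without untreated replicate 2 and became -0.21 without replicate 1. In 94T778 it was -0.22 and -0.50 without torkinib replicates 1 and 2. In SKBR3 it was -0.27 without untreated replicate 1. In SKMEL28 it was -0.04 and -0.28 without untreated replicates 1 and 2, and -0.21 without torkinib replicate 2. With 4 assembly factor genes that move in different directions, these medians describe the 2 lists and no test was made between them.

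The NDUFAF genes hold only some of the assembly factors. The others listed were 19 genes, which include NDUFAF5 to NDUFAF8 under the older symbols C20orf7, C8orf38, C2orf56 and C17orf89. Of these 19, 12 fell and 1 rose on average (median -0.29), beside 28.1% and 28.4% of all genes. The largest falls were those of C20orf7 (-1.14 ± 0.08), whose product hydroxylates NDUFS7, and AIFM1 (-1.08 ± 0.04), a flavoprotein needed for the import of small intermembrane space proteins. C20orf7 had 3.99 and 5.57 CPM with torkinib, against 22.5 and 19.8 CPM untreated, in AU565. AIFM1 had 43.3 and 40.4 CPM with torkinib, against 152 and 150.5 CPM untreated, in SKBR3. In these lines the treated libraries lay below the untreated ones without overlap. NUBPL, which delivers iron-sulfur clusters to complex I, rose (0.26 ± 0.07, edgeR, adjusted p = 0.0032). ACAD9 and ECSIT fell by 0.43 and 0.29, and C8orf38, C2orf56 and C17orf89 were not called.

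The 7 subunits encoded in mitochondrial DNA had a different pattern. On average 4 rose and none fell, with a median of 0.20, beside 28.4% and 28.1% of all genes. MT-ND1 rose most, 0.72 ± 0.07 (edgeR, adjusted p = 2.31e-11). It had 2526 and 2619.8 CPM with torkinib, against 1147 and 978 CPM untreated, in AU565, where the nuclear core subunits all fell. In SKMEL28 all 7 rose, with a median of 0.67, in SKBR3 and AU565 3 rose and none fell, and in 94T778 none was called. Of all genes 20.4% rose in SKMEL28, 24.6% in SKBR3 and 26.9% in AU565. In A375 2 fell, MT-ND4 and MT-ND4L, and MT-ND1 rose, beside 24.3% and 18.5% of all genes. The share of counts from all mitochondrially encoded genes moved with this. It was 7.39 and 8.39% in treated SKMEL28, against 5.27 and 6.58% untreated, and 6.32 and 6.2% in treated AU565, against 4.66 and 4.11% untreated. In SKBR3 it was 8.49 and 6.76% with torkinib and 7.63 and 4.44% untreated, and the groups overlapped. It was 3.03 and 2.62% in treated and 3.17 and 3.56% in untreated A375, and 3.12 and 3.01% in treated and 2.85 and 3.01% in untreated 94T778. With mitochondrially encoded genes left out of the fit, the calls on the nuclear members stayed within 1.5 times the counts given above. The part of this share in the changes of single genes was not tested.

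Genes of the other nuclear-encoded respiratory complexes moved in the same direction. Complex II had 4 of 4 genes lower on average (median -0.55), complex III 8 of 9 (-0.66), complex IV 9 of the 12 tested (-0.51) and ATP synthase 15 of 16 (-0.61), and none rose. Of all genes 28.1% fell and 28.4% rose on average. In A375 alone 2 of 4 genes fell in complex II, 3 of 9 in complex III, 3 of 12 in complex IV and 3 of 16 in ATP synthase. There 1 rose in complex III, 2 in complex IV and 1 in ATP synthase, beside 24.3% of all genes lower and 18.5% higher. SDHB, the iron-sulfur subunit of complex II, fell by 0.83, UQCR10 of complex III by 1.26, COX7B of complex IV by 1.03 and ATP5J2 of ATP synthase by 1.21. Among 74 genes of the mitochondrial ribosome, which makes the mitochondrially encoded subunits, 56 fell and 6 rose (-0.40). In each of these lists the breast lines had lower medians than A375, as for complex I.

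**Figure D4:**
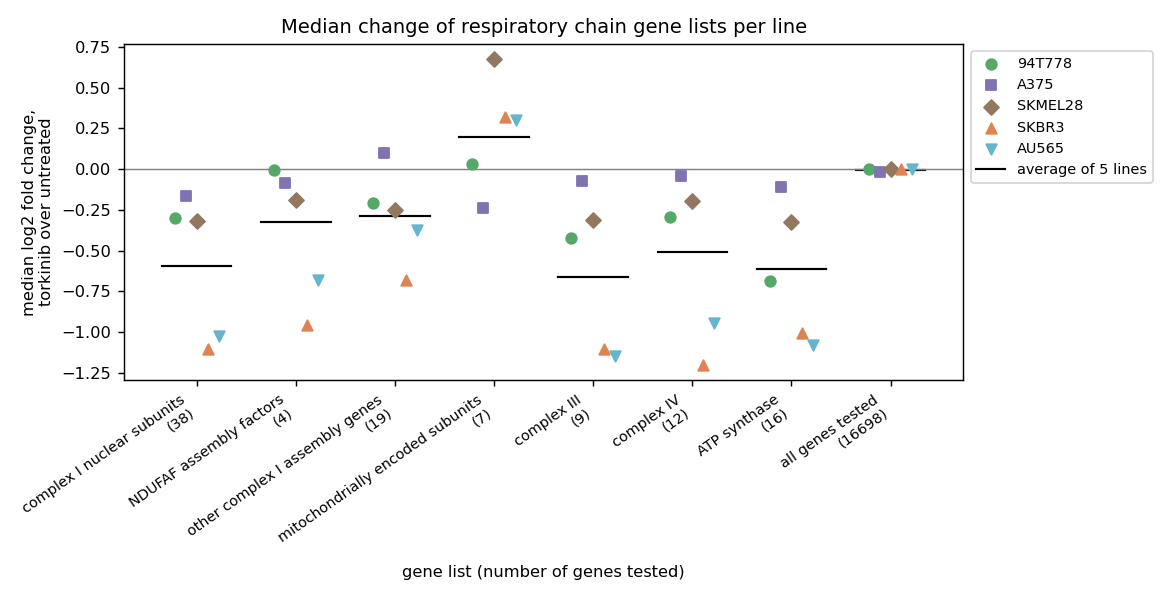
Median log2 fold change, torkinib over untreated, of gene lists in each of the 5 lines (symbols) and on average (bars), with all 16698 genes tested at the right. Nuclear subunits of complex I have a median of -1.10 in SKBR3 and -1.02 in AU565, close to complexes III and IV and ATP synthase, while the mitochondrially encoded subunits have 0.32 and 0.30.

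Of 12 regulators of mitochondrial genes 4 fell and 2 rose on average, beside 28.1% and 28.4% of all genes. The regulators thus lay near or below the background, and the genes below are described one by one. TFB1M, a methyltransferase of the mitochondrial ribosome, fell by 0.91. PPARGC1B, a coactivator of respiratory genes, fell by 0.56, with 4.42 and 3.91 CPM in treated and 8.03 and 10.8 CPM in untreated 94T778. GABPB1, the partner of GABPA, also fell by 0.56. ESRRA, a nuclear receptor for respiratory genes, rose by 0.31, and POLRMT, the mitochondrial RNA polymerase, by 0.26. These averages do not hold for the breast lines. ESRRA had 57.6 and 57.3 CPM in treated A375, against 33.4 and 40.7 CPM untreated, and 50.7 and 51.7 CPM in treated SKMEL28, against 27.4 and 26.3 CPM untreated, and rose in both. In SKBR3, AU565 and 94T778 its changes of -0.09, -0.11 and 0.21 did not pass. POLRMT rose in 94T778, A375 and SKMEL28, and its changes in SKBR3 and AU565 (-0.24 and -0.12) did not pass. YY1 fell by 0.12 (edgeR, adjusted p = 0.00851). NRF1, GABPA and TFAM were not called (-0.04, 0.09 and -0.02). PPARGC1A had no count in any SKBR3 or AU565 library, so its average is not given.

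Rises were few and rested on small numbers of genes. They were NDUFA5 and NDUFAF3 in 94T778, NDUFA2, NDUFB5 and NDUFAF3 in A375, and NDUFS7, NDUFAF3, NDUFB1, NDUFS3 and NDUFV1 in SKMEL28. Of all genes 23.8% rose in 94T778, 18.5% in A375 and 20.4% in SKMEL28. NDUFAF3, with 3 lines, was the only member that rose in more than 1 line. Of the 16698 genes tested, 2625 rose in 2 lines, 1466 in 3, 894 in 4 and 378 in 5. The counts of members that rose moved with single libraries. In 94T778 1 rose when untreated replicate 1, untreated replicate 2 or torkinib replicate 1 was left out. In A375 1 rose without untreated replicate 1. In SKMEL28 3 rose without untreated replicate 1, 2 without untreated replicate 2 and 2 without torkinib replicate 1. DESeq2 also gave 3 in SKMEL28, as did the fit with no filter on low counts.

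The size of the response differed between lines. Any difference among the 5 was called for 41 of 42 members, NDUFAF4 being the exception, beside 68.4% of all genes. The pairs given the same dose allow a comparison at 4 µM. AU565 and A375 differed for 38 members, all lower in AU565, beside 38% of all genes in either direction. The median difference was -0.83, and the largest was that of NDUFS8, -1.45 ± 0.16 (edgeR, adjusted p = 3.38e-09). AU565 and SKMEL28 differed for 33 members, all lower in AU565, beside 34.8% of all genes. The median was -0.73, and NDUFS7 differed most, by -2.04 ± 0.21 (edgeR, adjusted p = 6.93e-10). Both pairs share the AU565 libraries.

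The melanoma lines A375 and SKMEL28 differed for 9 members, beside 28.4% of all genes, a larger share than the members'. NDUFA2 rose in A375 and fell in SKMEL28, a difference of 0.83 ± 0.17 (edgeR, adjusted p = 2.23e-04). NDUFB3 and NDUFB2 fell in SKMEL28 and were not called in A375 (-0.12 and 0.03), differences of 0.78 and 0.54, and NDUFS7 was lower there (-0.69). This count was 5 without A375 untreated replicate 2, 15 and 14 without SKBR3 untreated replicates 1 and 2, and 16 with library totals. The SKBR3 libraries are no part of the pair, but all 20 libraries share 1 estimate of spread in the model. The untreated SKBR3 replicates differed from each other the most, with a chi-square per gene of 12.2. The part of this in the count was not tested.

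AU565 and SKBR3 differed for 6 members, beside 23.8% of all genes, at doses of 4 and 0.8 µM. The change was lower in AU565 for NDUFA5, which was not called in SKBR3, and for NDUFA4 (-0.59 ± 0.14 and -0.37 ± 0.11, edgeR, adjusted p = 0.00201 and 0.014). For NDUFB1, which was not called in AU565, NDUFV3, NDUFS8 and NDUFA2 the change was less negative in AU565, by 0.47 to 0.60. The count was 10 without SKBR3 untreated replicate 2, and 3 without AU565 untreated replicate 2, SKBR3 torkinib replicate 2 or AU565 torkinib replicate 2. A p that misses the threshold does not show that the lines respond alike.

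Levels set the breast lines less far apart from the others in treated cells than in untreated ones. Among treated cells SKBR3 had the highest mean of the 5 lines for 16 of 42 members, and among untreated cells for 34. The same counts were not made over all genes, so nothing particular to the members is read from them. All 42 members differed between untreated lines, beside 96.3% of all genes, which says little. A contrast of the 2 breast lines with the other 3 was added after these values were seen. With torkinib 21 members were higher and 14 lower in the breast lines, beside 37.5% and 39.1% of all genes, with a median of 0.14. In untreated cells 40 were higher and none lower, beside 38.9% and 39.8% of all genes, with a median of 0.93. NDUFB3 and NDUFA7 were not called in untreated cells. The 2 contrasts use different libraries, but the untreated ones also enter the response described above, so a high untreated level and a large fall are not separate measurements.

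NDUFB9 stood farthest apart, with 457 and 476 CPM in treated AU565, 724 and 645 CPM in treated SKBR3, and 56.3 to 108 CPM in the other treated libraries. Untreated libraries had 945 and 948 CPM in AU565, 1536 and 1478 CPM in SKBR3 and 62.9 to 119 CPM elsewhere. The breast lines were higher by 2.88 ± 0.05 with torkinib and by 3.68 ± 0.05 untreated, on the log2 scale. NDUFS8 went the other way with treatment. It was lower in the breast lines with torkinib (-0.95 ± 0.08, edgeR, adjusted p = 1.65e-13) and higher untreated (0.84 ± 0.06, edgeR, adjusted p = 5.10e-15).

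**Figure D5:**
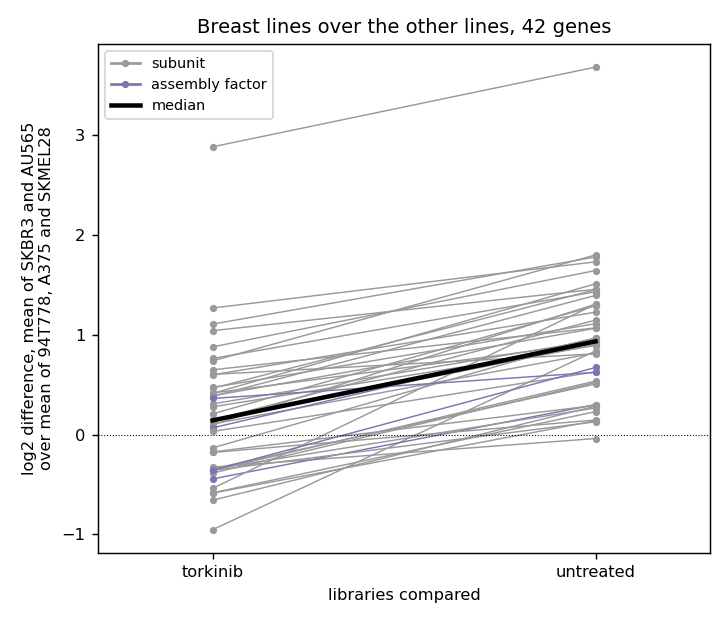
Log2 difference between the mean of SKBR3 and AU565 and the mean of 94T778, A375 and SKMEL28 for each member (lines; subunits grey, assembly factors purple), among treated libraries (left) and untreated libraries (right). The median (black) is 0.14 with torkinib and 0.93 untreated, and the topmost line is NDUFB9.

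The strand setting of the counting is not given in the sources used here, so reads of overlapping genes cannot be told apart from reads of a member. For a gene on the same strand, knowing the strand setting would not tell them apart either. Exons of 23 members share positions with another gene in GENCODE 29, and those of 18 with a protein-coding gene. The overlaps were read from gene models on another build and used for names alone. Among the members described above these include NDUFA1 (RNF113A), NDUFA2 (IK and TMCO6), NDUFAF3 (DALRD3), NDUFB9 (MTSS1 and TATDN1) and NDUFC2 (THRSP), all on the opposite strand. On the same strand NDUFC2 overlaps NDUFC2-KCTD14, NDUFS3 overlaps PTPMT1, and NDUFA9 overlaps AC005832.4 and AC005833.1. Pseudogene symbols took almost no reads, 8 counts for NDUFB1P1 and 4 for NDUFB1P2 over all libraries.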

How the data were processed

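Total RNA was isolated with a Qiagen RNeasy midi kit, per the labels. The deposited values are raw read counts per gene, made by the authors with HISAT2 2.04 and HTSeq 0.6.1 on hg19 (GRCh37), per the submitters' processing notes, which also list limma 3.34.9. What each tool did, which annotation was used and how strand was set is not given in the sources used here. Named genes took 47.8 to 62.4% of the deposited counts in each library, and rows that name no gene were left out.

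The test was run with edgeR 4.0.16 under R 4.3.3 (TMM factors, the filterByExpr filter, 10 group means, 10 residual and 25.6 prior degrees of freedom, common biological coefficient of variation 0.0547). The quasi-likelihood test was adjusted by Benjamini-Hochberg over 16698 genes at 0.05. The SE is the size of the log2 fold change divided by the square root of F, and the log2 CPM used a prior count of 2. Marker sums are CPM of library totals. The procedure was tested on simulated data. Intervals of counting error are not given, and 2 libraries per group limit the precision.

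The members, gene lists and comparisons were chosen with earlier results of these data known. Values are given by a rule for the core subunits (1 member counted among the 42 is not reported here by itself), NDUFAF genes, NDUFAB1 and NDUFA4, for the accessory subunits with the 4 lowest and 3 highest average changes, for the 2 extremes called in each direction per line, for the 5 smallest p-values for a difference between lines, and for the 4 smallest p-values of each other list. Other genes named, among them NDUFB9, and the contrast of breast lines with the rest were chosen after values were seen. Alternatives were RLE factors, library totals, other count filters, DESeq2 1.42.0, limma-voom with limma 3.58.1, leaving out mitochondrially encoded genes, a replicate block, fitting each line alone and leaving out each library. Same-numbered libraries did not deviate together (correlation of deviations -0.06 to 0.07 by line), so the block is an alternative.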

Additional observations from a re-analysis of the deposited data

Results flagged for a closer look

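The change with torkinib differed between lines, by a test of the difference itself, for 41 of 42 members, beside 68.4% of all genes tested. At the shared dose of 4 µM, 38 members differed between AU565 and A375, from NDUFS8 (-1.45 log2, AU565 minus A375) to NDUFB5 (-0.42), beside 38% of all genes. Between AU565 and SKMEL28 33 members differed, from NDUFS7 (-2.04) to NDUFS4 (-0.41), beside 34.8% of all genes. Between A375 and SKMEL28 9 members differed, in both directions, with NDUFS7 at -0.69 and NDUFA2 at 0.83 (A375 minus SKMEL28), beside 28.4% of all genes. Between AU565 and SKBR3, at different doses, 6 members differed, with NDUFA5 at -0.59 and NDUFB1 at 0.60 (AU565 minus SKBR3), beside 23.8% of all genes. In these last 2 pairs the members' share lay below that background, and nothing about the members is read from it.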

How the results depend on the processing

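Counts of members called, both directions together, in each line, on average and between lines stayed within 1.5 times their value under every alternative run, except in 2 comparisons. For A375 against SKMEL28 the count of 9 became 16 with library totals and ran from 5 to 15 when each library was left out. For AU565 against SKBR3 the count of 6 ran from 3 to 10 in this way. The cause was not tested. With the replicate block the counts were 11 and 9 in these pairs and 38 on average, and no call on a count moved by over 1.5 times. Average changes near 0 turned sign. NDUFAF3 (0.02) became -0.0045 with no filter and -0.00018 with the filter of 20 counts, and ran from -0.0072 to 0.035 without single libraries. NDUFB5 (0.03) ran from -0.0079 to 0.075. The difference of medians between subunits and assembly factors in A375 (-0.08) ran from -0.21 to 0.031. The cause of these turns was not tested. With 2 libraries per group, small changes in 1 line, such as NDUFA4 and NDUFS3 in 94T778, lie close to the threshold.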

Other observations

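The genes beside 3 members, NDUFA12, NDUFB9 and NDUFC2, were looked up after their values were seen. NDUFA12 averaged 332 CPM in untreated 94T778, against 31.5 to 93.3 CPM in the other untreated lines. Its neighbours NR2C1 and FGD6 averaged 322 and 267 CPM there, 7.09 and 7.63 times the next line. Of 10 neighbouring genes tested, 4 were highest in 94T778, beside 20.4% of all genes. NDUFC2 itself was not highest in 94T778. Without torkinib its mean level was 141 CPM there, beside 157 for SKBR3, 136 for AU565, 53.2 for SKMEL28 and 44.6 for A375. Among its 10 neighbours 3 were highest in 94T778, by at most 1.105 times the next line. NDUFB9 averaged 1507 CPM (SKBR3) and 946 CPM (AU565) in the untreated breast lines, against 67.1 to 119 CPM elsewhere. Of its 10 neighbours, 9 were higher in both breast lines than in the other 3, beside 24.2% of all genes.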
